A study of Mus musculus with 4 samples.

Results

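Lipid uptake and storage genes of macrophages were described here as 10 genes chosen by name: Pparg, Cd36, Msr1, Marco, Scarb1, Olr1, Lpl, Fabp4, Fabp5 and Plin2. This choice, like that of the lists further on, was made with earlier results of these data known. All 10 had at least 1 probe on the arrays, 21 probes together, out of 24841 genes that the arrays name. RAW264, a macrophage-like tumour line from BALB/c mice, was given small interfering RNA (siRNA) either against GFP, a protein that mouse cells lack, as the control, or against Tfe3 and Tfeb together. Tfe3 and Tfeb are related transcription factors that switch on lysosome and autophagy genes. From 48 hours after transfection, cultures were held for 24 hours without added iron or with 500 µM ferric chloride. This gives 4 groups, siGFP, siGFP with iron, siTfe3/Tfeb and siTfe3/Tfeb with iron, with 1 array of total RNA each. All groups share the cell line, the strain and the transfection, and no untransfected culture was analysed here.

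Macrophages take up fatty acids and modified lipoproteins through scavenger receptors, chiefly Cd36, Msr1 (scavenger receptor A), Marco and, in some settings, Olr1. Lpl, a secreted lipase, frees fatty acids from the triglyceride of lipoproteins. Inside the cell, Fabp4 and Fabp5 carry fatty acids through the cytosol, and surplus lipid is stored as ester in droplets coated by Plin2. The nuclear receptor Pparg binds fatty acid derivatives, pairs with a retinoid X receptor (Rxr) and activates several of these genes, Cd36 and Fabp4 among the best known. Cells loaded this way are known as foam cells.

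With 1 array per group, every difference is one between a pair of arrays, with no replicate, test or p-value. Levels are processed signals on the log2 scale after subtracting that array's 75th percentile, and a difference on that log2 scale is called 2-fold from 1.0 upward. The only error is the spread of repeated spots of a probe on an array, which gave an SD for a log2 difference of 0.32 for the dimmest probes, 0.26, 0.12 and 0.084 through the levels between, and 0.064 for the brightest. This spot SD holds nothing of the variation between cultures. The 4 arrays had 75th percentiles from 593 to 636 signal units and 14336 to 14904 genes well above background each. Of the members, 9 were well above background on every array and Olr1 on none.

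The labels were checked against the siRNA targets and against marker genes. Tfe3 stood at 60.6% of its siGFP level without iron and 68.4% with iron (spot SD 0.064 on the log2 scale), while the brightest Tfeb probe stood at 91.0% and 112% (spot SD 0.12). Mitf, a relative that the siRNA is not labelled to target, stood at 93.7% and 96.6%. The other Tfeb probes stood at 88.3% to 105% without iron and at 90.7% to 95.9% with iron. No Tfeb probe was lower by more than its spot SD in both iron settings. The name siTfe3/Tfeb therefore stands for the label of an array. All 12 macrophage markers were well above background on every array, with summed signals of 676570 to 788003. Of 10 adipocyte markers, a cell type that also uses Cd36, Fabp4 and Lpl, 9 were above background on no array, among them Adipoq (adiponectin), and the summed signal of the list ran from 253 to 275.

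Promoter sequences from RefSeq were held for 5 of the 10 genes, in 7 windows of 300 bases on GRCm38.p6: Marco, Plin2, Cd36, Olr1 and 3 transcript starts of Pparg. Each window sits at an annotated transcript start, and a gene may use other starts. The windows of Cd36, the gene furthest from 0 with siRNA, and of Plin2, which held an E-box, are shown from 250 bases before the start to 5 bases into the transcript. Both genes lie on the minus strand, and the sequences read 5' to 3' along the gene, with motif matches in capitals. The Cd36 window is chr5:17835892-17836146 and the Plin2 window is chr4:86670055-86670309.
Cd36: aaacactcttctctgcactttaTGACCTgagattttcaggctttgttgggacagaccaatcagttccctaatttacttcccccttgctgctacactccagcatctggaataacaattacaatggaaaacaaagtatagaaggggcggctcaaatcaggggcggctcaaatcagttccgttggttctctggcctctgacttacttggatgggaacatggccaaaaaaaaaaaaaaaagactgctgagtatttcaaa
Plin2: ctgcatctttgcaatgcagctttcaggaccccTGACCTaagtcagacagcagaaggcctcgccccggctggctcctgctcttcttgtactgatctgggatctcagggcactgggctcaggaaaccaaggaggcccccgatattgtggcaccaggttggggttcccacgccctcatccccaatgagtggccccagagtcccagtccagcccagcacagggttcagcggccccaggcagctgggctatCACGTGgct
In both windows the capitals TGACCT mark the opposite-strand form of AGGTCA, the single receptor site bound by Pparg and other nuclear receptors. It begins 228 bases before the start in Cd36 and 218 bases before it in Plin2. Of all 32851 promoter windows in the table, 16.3% hold this single site on either strand, as did 5 of the 7 windows here: those of Cd36, Plin2 and Olr1 and 2 of the 3 of Pparg. The full Pparg and Rxr element, AGGTCANAGGTCA, contains that site and was found in 13 windows (0.0396%), none of them of these genes. In Plin2 the capitals CACGTG mark the E-box letters that Tfe3 and Tfeb can bind, from 4 bases before the start; 7.15% of windows hold them, and of the 7 windows here the Plin2 one did. TGACNNNGC, the core of the antioxidant response element, was in 12.4% of windows and in 1 of the 3 Pparg windows. These matches describe letters in a window and are no evidence of binding.

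With iron, Fabp4, Fabp5, Cd36, Msr1, Lpl, Plin2 and Scarb1 were each higher by more than their spot SD in both siRNA settings. Fabp4 was the furthest. Scarb1 passed narrowly in siGFP cells (0.083, spot SD 0.064), where its dimmer probe gave -0.25. In the bulk RNA of a culture, fewer cells that express a gene and less RNA per cell cannot be told apart. In siGFP cells 2 of the 9 measured genes, Cd36 and Fabp4, were at least 2-fold higher with iron, against 1.40% of the 14274 genes measured, and none was 2-fold lower, against 0.266%. In siTfe3/Tfeb cells 2 of 9, Lpl and Fabp4, were at least 2-fold higher, against 1.61% of 14120 genes, and none was lower, against 0.453%. The median log2 difference of the 9 genes was 0.64 in siGFP and 0.76 in siTfe3/Tfeb cells, where all genes measured had medians of -0.020 and -0.0065. With iron 8 of 9 lay above 0 in siGFP cells and 9 of 9 in siTfe3/Tfeb cells, against 46.0% and 49.1% of all genes. Because the 9 genes were chosen with earlier results known, these counts and medians describe them and test nothing. On median-centred arrays the split of all genes in siTfe3/Tfeb cells was 299 higher and 40 lower, in place of 228 and 64.

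With Tfe3/Tfeb siRNA, Cd36 and Fabp4 were lower both without and with iron, and no other member passed 2-fold. Without iron these were 2 of 9 at least 2-fold lower, against 1.84% of 14314 genes, and none was higher, against 1.39%. With iron they were again 2 of 9 lower, against 1.34% of 14064 genes, and none was higher, against 0.853%. The median of the 9 genes was -0.50 without iron and -0.19 with iron, beside -0.028 and -0.019 over all genes. Median centring turned the split of all genes with iron from 120 higher and 189 lower to 180 higher and 140 lower. The comparisons share arrays: the siGFP array without iron is the base of both the iron difference and the siRNA difference, so a high or low reading of it enters both. The difference of the iron responses, siTfe3/Tfeb minus siGFP, passed 2-fold in no member, against 0.281% of 13859 genes higher and 0.346% lower. That background also moved with scaling, from 39 higher and 48 lower to 80 and 26 on median-centred and 50 and 37 on quantile-normalized arrays.

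**Figure D1:**
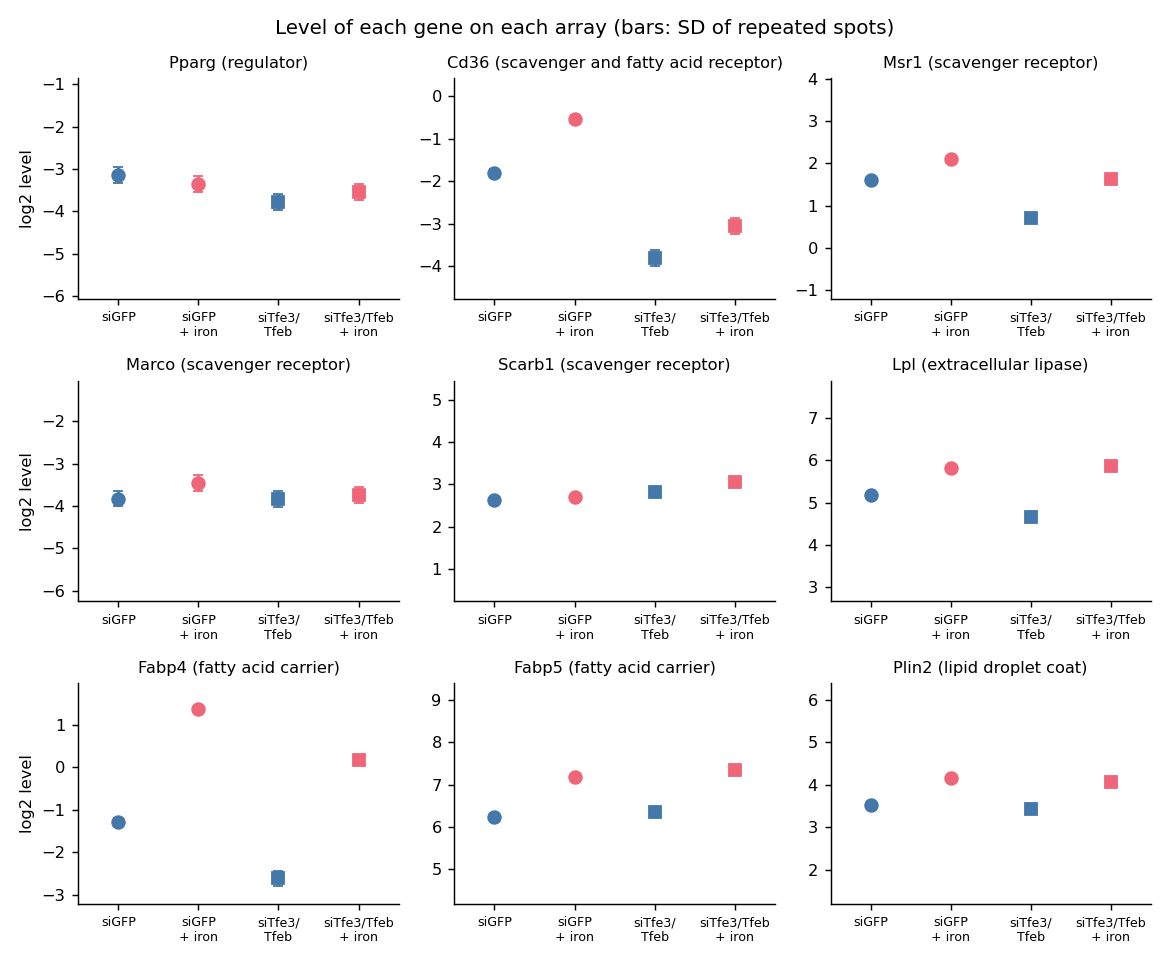
Log2 level of each of the 9 measured genes (vertical axis, log2 processed signal relative to the array's 75th percentile) on the 4 arrays (horizontal axis), with circles for siGFP, squares for siTfe3/Tfeb, red for iron and bars for the SD of repeated spots at that level. Each panel spans the same log2 range around its own middle; Fabp4 and Cd36 move most, and both stand lower on the siTfe3/Tfeb arrays.

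Pparg, the nuclear receptor at the head of the group, was dim on all arrays. Its brighter probe (chromosome 6, 115440213 to 115440272, mm9, as the array design places it) read 70.1 without and 61.3 with iron under GFP siRNA, and 46.1 without and 50.7 with iron under Tfe3/Tfeb siRNA. The siGFP array was the highest and both siTfe3/Tfeb arrays the lowest. Iron differences were -0.21 in siGFP and 0.24 in siTfe3/Tfeb cells, each with a spot SD of 0.26, so neither exceeded the spot spread. With siRNA the level was lower by more than its spot SD without iron (-0.64, 1.56-fold lower) but not with iron (-0.19). With normexp correction the difference without iron was -0.35 or -0.30, depending on the scaling, and averaged over both probes -0.39. Another Pparg probe (6, 115413557 to 115413616) was not well above background on any array. The exon or untranslated region that each probe matches was not analysed here, except for the Fabp4 probe printed further on.

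Cd36, a receptor for both oxidised lipoprotein and long-chain fatty acids, had the largest siRNA differences of the 10 genes. Its probe (chromosome 5, 17288600 to 17288659, mm9) read 178 without and 432 with iron under GFP siRNA, and 45.3 without and 71.2 with iron under Tfe3/Tfeb siRNA. Both siTfe3/Tfeb arrays lay below both siGFP arrays, and the iron array was the higher of each pair. With iron Cd36 was 2.40-fold higher in siGFP cells (log2 difference 1.26, spot SD 0.12), which ranked 108th from the top of 14274 genes. In siTfe3/Tfeb cells the iron difference was 1.69-fold (0.76, spot SD 0.26). The iron responses differed by -0.51 (spot SD 0.29), a difference with no test.

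With siRNA Cd36 was 4.04-fold lower without iron (-2.02) and 5.74-fold lower with iron (-2.52), each with a spot SD of 0.20. These ranked 38th and 10th from the bottom of all genes measured. The probe was dim on the siTfe3/Tfeb arrays, and the sizes depended on the background correction. With normexp correction and the 75th percentile, the siRNA differences were -1.10 and -1.72, the iron difference in siGFP cells was 1.0, just short of 2-fold as it also was with normexp and quantile normalization, and that in siTfe3/Tfeb cells was 0.38.

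Msr1, the receptor for acetylated and oxidised lipoprotein, stayed within 2-fold by its brighter probe in all 4 comparisons, although the iron difference in siTfe3/Tfeb cells passed it with median centring (1.02). That probe (chromosome 8, 40709296 to 40709355, mm9) read 1871 without and 2687 with iron under GFP siRNA, and 1038 without and 1829 with iron under Tfe3/Tfeb siRNA. The siGFP array with iron was the highest and the siTfe3/Tfeb array without iron the lowest, with the other two close together between them. Iron differences were 1.42-fold in siGFP (0.50, spot SD 0.075) and 1.89-fold in siTfe3/Tfeb cells (0.92, spot SD 0.084). With siRNA Msr1 was 1.85-fold lower without iron (-0.89) and 1.39-fold lower with iron (-0.47). A second probe (8, 40689158 to 40689217) gave 0.60 and 0.97 with iron and -1.04 and -0.67 with siRNA, the -1.04 being just past 2-fold.

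Marco, a collagen-like receptor for bacteria and particles, read 43.6 without and 56.8 with iron under GFP siRNA, and 44.5 without and 44.4 with iron under Tfe3/Tfeb siRNA (chromosome 1, 122371115 to 122371134, mm9). The siGFP array with iron was the highest and the other arrays read alike; it stood above siGFP by 0.36 on the log2 scale against a spot SD of 0.26. With normexp correction and the 75th percentile this was 0.11, within the spot SD. In siTfe3/Tfeb cells the iron difference was 0.099, and the siRNA differences were -0.010 and -0.27.

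Scarb1, the receptor that takes cholesterol ester from high-density lipoprotein, differed little between arrays. Its bright probe (chromosome 5, 125757483 to 125757542, mm9) read 3808 without and 4081 with iron under GFP siRNA, and 4512 without and 4951 with iron under Tfe3/Tfeb siRNA. Scarb1 and Fabp5 were the members measured here that were higher with siRNA both without and with iron. Fabp5 differed by 0.11 and 0.15, and Scarb1 by 0.21 and 0.36 (spot SD 0.064). Over the settings tried the Scarb1 difference without iron ran from 0.14 to 0.26. Iron differences were 0.083 and 0.24, and a dimmer probe (5, 125777604 to 125777663) gave -0.25 and 0.094. With siRNA the dimmer probe gave 0.065 without iron, within its spot SD of 0.12, and 0.41 with iron.

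Olr1, the receptor for oxidised lipoprotein on endothelium and some macrophages, was not well above background on any array by either probe. Its signals ran from 4.56 to 15.1, so no fold is given.

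Lpl, the secreted lipase, was bright and read 22425 without and 35642 with iron under GFP siRNA, and 16247 without and 34804 with iron under Tfe3/Tfeb siRNA (chromosome 8, 71430267 to 71430326, mm9). Both iron arrays stood at nearly the same level, and the siTfe3/Tfeb array without iron was the lowest. Iron differences were 1.57-fold in siGFP (0.65, spot SD 0.064) and 2.30-fold in siTfe3/Tfeb cells (1.20), the latter 151st from the top of 14120 genes. With siRNA Lpl was 1.42-fold lower without iron (-0.50), and with iron the difference was 0.047, within its spot SD of 0.064. The iron responses differed by 0.55 (spot SD 0.090).

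Lpl carried 6 probes, all well above background on every array. Averaged over them the iron difference in siTfe3/Tfeb cells was 0.92 and no longer 2-fold. The probe at 71413311 to 71413370 differed by -0.019 and 0.20 with iron, where the others gave 0.48 to 0.69 in siGFP cells and 0.60 to 1.32 in siTfe3/Tfeb cells. Over the 6 probes the difference of iron responses ran from 0.11 to 0.73, and the siRNA difference without iron from -0.59 to -0.0081.

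Fabp4, the adipocyte and macrophage fatty acid carrier, had the largest iron differences of the 10 genes. Its brighter probe (chromosome 3, 10204452 to 10204511, mm9) read 256 without and 1638 with iron under GFP siRNA, and 104 without and 673 with iron under Tfe3/Tfeb siRNA. Both iron arrays lay above both arrays without iron, and within each iron setting the siTfe3/Tfeb array was the lower. Iron differences were 6.32-fold in siGFP (2.66, spot SD 0.11) and 6.96-fold in siTfe3/Tfeb cells (2.80, spot SD 0.19). Both ranked 8th from the top of all genes measured, and the iron responses differed by 0.14, less than the spot SD of 0.22.

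With siRNA Fabp4 was 2.53-fold lower without iron (-1.34, spot SD 0.20) and 2.30-fold lower with iron (-1.20, spot SD 0.084), ranking 116th and 111th from the bottom. With normexp correction and the 75th percentile the difference without iron was -0.94, short of 2-fold.

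The second Fabp4 probe lies 5' of the first in coding sequence, at chr3:10208442-10208501 (mm9), and is shown because it repeats the pattern from another part of the transcript.
Fabp4 probe A_52_P564544: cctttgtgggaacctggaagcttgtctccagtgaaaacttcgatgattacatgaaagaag
This probe read 37.4 without and 228 with iron under GFP siRNA, and 18.8 without and 87.8 with iron under Tfe3/Tfeb siRNA, and on the siTfe3/Tfeb array without iron it was not well above background. It was 6.01-fold higher with iron in siGFP cells and 2.45-fold lower with siRNA under iron. Comparisons with the array below background were taken against the lowest signal well above background there. This gave 4.61-fold higher with iron in siTfe3/Tfeb cells and 1.88-fold lower with siRNA without iron. The spot SDs of these log2 differences were 0.29 and 0.32, so both folds are approximate and no strict bounds.

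Fabp5, the epidermal-type carrier that macrophages express alongside Fabp4, was bright and stopped just short of 2-fold with iron. It passed in siGFP cells with quantile normalization (1.0) or with normexp and quantile normalization (1.02), and in siTfe3/Tfeb cells with median centring (1.09) or the series matrix values (1.01). It read 46810 without and 91764 with iron under GFP siRNA, and 52028 without and 96328 with iron under Tfe3/Tfeb siRNA (chromosome 3, 10016185 to 10016244, mm9). Both iron arrays were high and both others low. Iron differences were 1.94-fold (0.95) and 1.99-fold (0.99), each with a spot SD of 0.064, and siRNA differences were 0.11 and 0.15. Fabp5 thus shared the direction of Fabp4 with iron but not with siRNA.

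Plin2, the droplet coat protein, read 7138 without and 11288 with iron under GFP siRNA, and 6811 without and 9913 with iron under Tfe3/Tfeb siRNA (chromosome 4, 86302847 to 86302906, mm9). Both iron arrays were higher than both others. The iron difference was 1.56-fold in either siRNA setting (0.64, spot SD 0.064), and the siRNA difference was -0.11 both without and with iron. A dimmer probe gave smaller iron differences of 0.34 and 0.45 (spot SD 0.12).

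**Figure D2:**
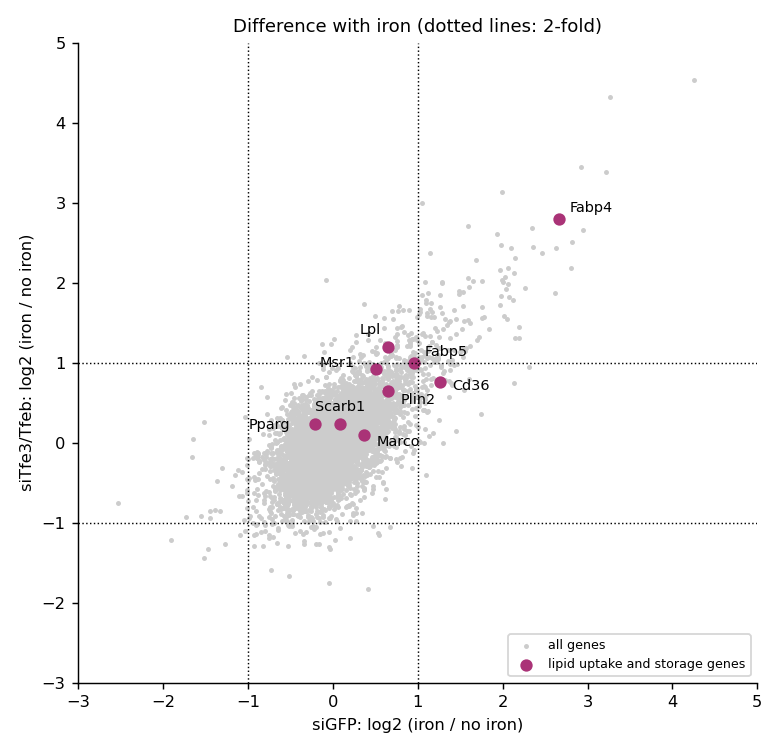
Log2 difference with iron in siGFP cells (horizontal axis) against that in siTfe3/Tfeb cells (vertical axis) for the 13859 genes measured on every array (grey) and the 9 measured lipid genes (purple), with dotted lines at 2-fold. Fabp4 stands far out on both axes (2.66 and 2.80), Cd36 passes 2-fold on the horizontal axis and Lpl on the vertical one.

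**Figure D3:**
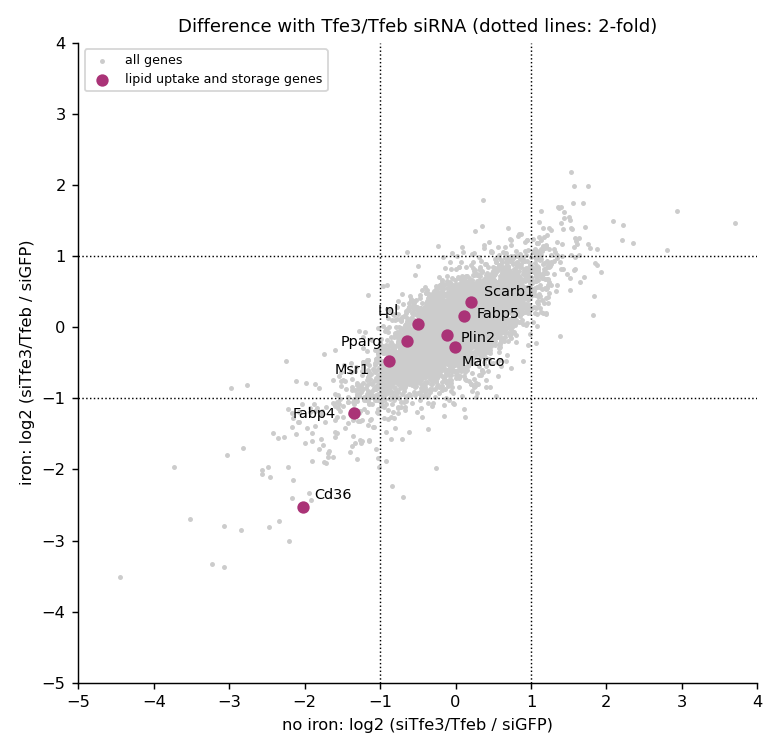
Log2 difference with Tfe3/Tfeb siRNA without iron (horizontal axis) against that with iron (vertical axis), for the same genes as in the iron plot. Cd36 (-2.02 and -2.52) and Fabp4 (-1.34 and -1.20) lie past 2-fold on both axes, and the other 7 lipid genes lie inside the dotted lines.

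Where a gene had several probes, the others mostly had the sign of the brightest. With iron this held for 7 of 9 further measured probes in siGFP cells, the exceptions being a probe each of Lpl and Scarb1, and for 8 of 8 in siTfe3/Tfeb cells. With siRNA it held for 8 of 8 without iron and 6 of 9 with iron, where the exceptions were 2 Lpl probes and 1 Plin2 probe at differences close to 0.

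**Figure D4:**
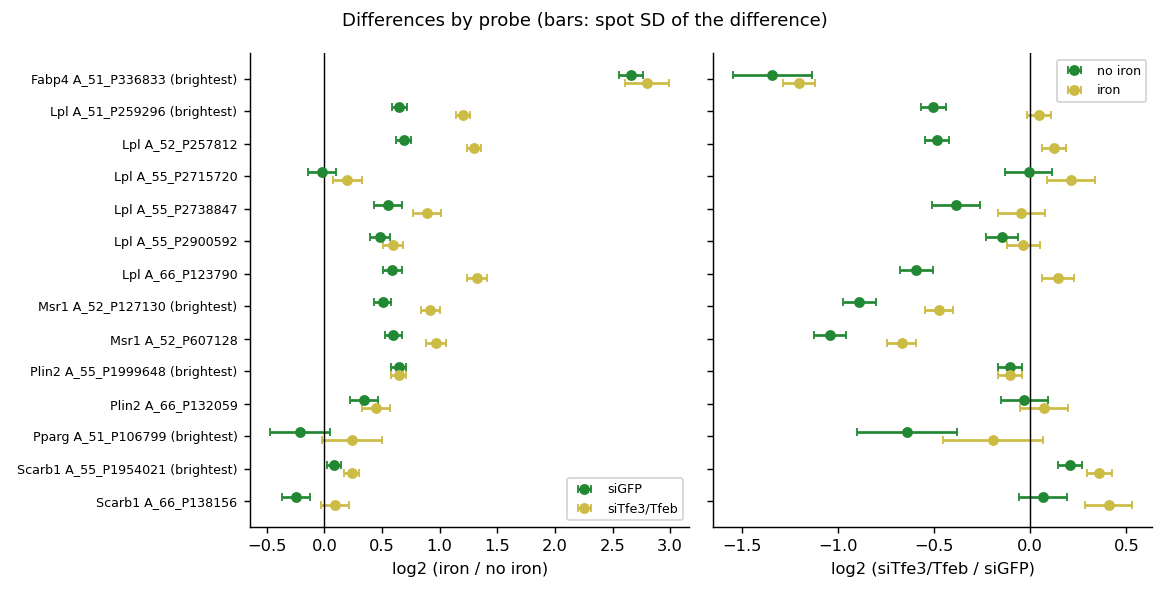
Log2 differences of each probe that was well above background on every array, for the genes with several probes, with iron (left, siGFP in green and siTfe3/Tfeb in yellow) and with siRNA (right, without iron in green and with iron in yellow); bars are the spot SD of the difference. Both Msr1 probes and 5 of the 6 Lpl probes show iron differences above 0 in both siRNA settings, and Lpl probe A_55_P2715720 stays near 0 in siGFP cells.

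Genes with the most similar pattern to Cd36, Lpl and Fabp4, the members past 2-fold in any comparison, were sought among the other 13858 genes measured on every array. Likeness was the root mean square distance between log2 levels over the 4 arrays, each gene centred on its own mean, and over 4 points this is a loose measure. Nearest to Cd36 were the stefin-type cystatins Cstdc5 (distance 0.14) and Cstdc4 (0.25) and the chemokine Ccl6 (0.17). Ccl6 differed by 0.93 and 0.42 with iron and by -1.91 and -2.42 with siRNA, where Cd36 had 1.26, 0.76, -2.02 and -2.52. On the siTfe3/Tfeb arrays without and with iron, Cd36 (-3.81 and -3.06) and Cstdc5 (-3.90 and -3.10) were dim. The spot SD of a difference there is 0.26, above 0.14, so the closeness of Cstdc5 to Cd36 is not resolved. The dim Cd36 readings limit the distances of Ccl6 and Cstdc4 too. Nearest to Lpl were the actin-binding Lmod3 (0.068), the MiT/TFE family member Tfec (0.080) and the thioredoxin reductase Txnrd1 (0.097). Lmod3 and Tfec were dim, with log2 levels from -4.52 to -3.34 and from -4.55 to -3.40. The spot SD of a difference at such levels is 0.26 to 0.32, larger than their distances, so their closeness to Lpl is not resolved. Txnrd1 differed by 0.62 and 1.0 with iron and by -0.55 and -0.17 with siRNA. Nearest to Fabp4 were the growth factor Hbegf (0.24), the chemokine Ccl4 (0.27) and Il1rn, the interleukin 1 receptor antagonist (0.30). Hbegf was dim without iron, at -3.68 in siGFP and -4.48 in siTfe3/Tfeb cells, so its distance is uncertain too. Il1rn differed by 2.36 and 2.45 with iron and by -1.81 and -1.72 with siRNA.

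In the wider pathway few genes passed 2-fold with iron. The counts of each list that follow stand against the same shares of all genes: with iron 1.40% and 1.61% were 2-fold higher and 0.266% and 0.453% lower, and with siRNA 1.39% and 0.853% were higher and 1.84% and 1.34% lower, so 1 gene of a list is no result about the list. Among the partners and cofactors of Pparg, 12 of 15 were measured and none differed 2-fold in any of the 4 comparisons. Rxra, the Rxr subunit furthest from 0 with iron in siGFP cells, differed by 0.45 and 0.37 with iron and by 0.74 and 0.66 with siRNA; averaged over its probes the siRNA differences were 1.37 and 1.15. Of 23 further PPAR target genes, 10 were above background on no array. Among the 13 measured, Fabp3, the heart-type fatty acid carrier, was higher with iron, 3.93-fold in siGFP (1.98) and 3.55-fold in siTfe3/Tfeb cells (1.83), and no other target passed 2-fold in either direction. The median iron difference of the targets was -0.14 in siGFP and -0.032 in siTfe3/Tfeb cells, the second turning to 0.071 on median-centred arrays. Under Tfe3/Tfeb siRNA their medians were 0.12 without and 0.26 with iron, above 0 under each scaling and background correction tried. In each case 9 of 13 lay above 0, against 46.5% and 47.2% of all genes. With siRNA Fabp3 differed by -0.063 and -0.21, so it shared the iron difference of Fabp4 but not its siRNA difference.

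Other scavenger receptors were measured for 13 of 17 genes in siGFP and 12 in siTfe3/Tfeb cells, and with iron none was 2-fold higher. Cxcl16, a membrane-bound chemokine that binds oxidised lipoprotein, was 2.27-fold lower with iron in siGFP cells (-1.18) and differed by -0.54 in siTfe3/Tfeb cells. With siRNA 1 of 13 was lower without iron and 2 of 12 with iron, and none was higher. These were Cd5l, a secreted scavenger protein of macrophages (-1.94 and -2.34), and with iron also Mertk, a receptor for dying cells (-1.06); both were chosen after their values were seen. With normexp correction under either scaling neither the Cd5l difference without iron nor the Mertk difference passed 2-fold. With quantile normalization or median centring the Mertk difference did not.

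Fatty acid import and activation had 12 of 23 genes measured in siGFP and 13 in siTfe3/Tfeb cells, and Fabp3 alone was 2-fold higher with iron, with none lower. With siRNA Acsbg1, an acyl-CoA synthetase named after its values were seen, was lower without and with iron (-1.16 and -1.03), but not past 2-fold with normexp correction or averaged over its probes, nor, for the difference with iron, on median-centred arrays. It was the only one past 2-fold of 11 and 12 measured.

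Triglyceride and sterol ester synthesis was measured for 16 of 18 genes. None differed 2-fold with iron in siGFP cells, where Gpat3, a glycerol phosphate acyltransferase, was furthest (0.64, and 0.0096 in siTfe3/Tfeb cells). In siTfe3/Tfeb cells Mogat1, a monoacylglycerol acyltransferase, was 2.95-fold higher with iron (1.56; 0.86 averaged over its probes) and Soat2, a sterol acyltransferase, 2.29-fold lower (-1.19). In siGFP cells these had differed by 0.61 and 0.20. With siRNA without iron Soat2 was higher (1.83) and Mogat1 lower (-2.03), and with iron Mogat1 was the 1 gene past 2-fold (-1.08), which it was not on median-centred arrays, with normexp under either scaling or averaged over its probes. Median centring brought Lpin1 (1.06), a phosphatidate phosphatase, and Gpam (1.03), an acyltransferase, past 2-fold higher there, from 0.94 and 0.91.

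Lipid droplet proteins other than Plin2 had 7 of 14 measured and none differed 2-fold in any of the 4 comparisons. Hilpda, a droplet protein that restrains lipase activity, was furthest with iron (0.80 and 0.82, with siRNA 0.51 and 0.53). Of 21 lipases and their regulators, 16 were measured and none passed 2-fold in the 4 comparisons. Nceh1, which hydrolyses cholesterol ester, was furthest with iron in siGFP cells (0.97, with 0.71 in siTfe3/Tfeb cells). Averaged over its probes these were 0.32 and -0.42.

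Fatty acid oxidation was measured for 18 of 21 genes and none differed 2-fold in any of the 4 comparisons. With iron 5 of 18 lay above 0 in siGFP cells and 2 of 18 in siTfe3/Tfeb cells, against 46.0% and 49.1% of all genes. The medians were -0.077 and -0.17, and Acadvl, the very-long-chain acyl-CoA dehydrogenase, was furthest in siGFP cells (-0.29, with -0.32 in siTfe3/Tfeb cells). With siRNA 17 of 18 lay above 0 without iron and 16 of 18 with iron, against 46.5% and 47.2% of all genes, with medians of 0.26 and 0.24. These medians kept their sign under each scaling and background correction tried.

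**Figure D5:**
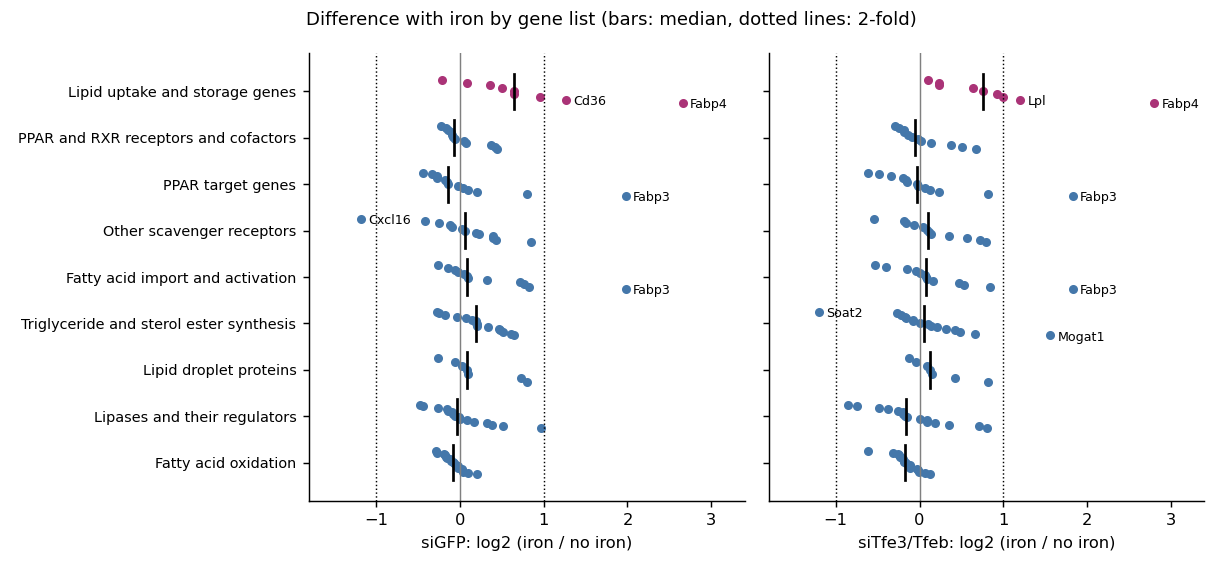
Log2 difference with iron in siGFP cells (left) and siTfe3/Tfeb cells (right) for the 9 lipid uptake and storage genes (purple) and the measured genes of 8 related lists (blue), with the median as a black bar and dotted lines at 2-fold. The medians of the 9 genes are 0.64 and 0.76, while those of the 8 lists lie between -0.17 and 0.20. Genes and lists were chosen with earlier results of these data known, so this contrast tests nothing.

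Markers of other cell types gave the following values beside the iron and siRNA differences of the lipid genes. Lep (leptin), the 1 adipocyte marker measured, differed by -0.065 and 0.22 with iron and by -0.14 and 0.15 with siRNA. The endothelial list had 2 of 8 measured on every array, with summed signals of 196 without and 363 with iron under GFP siRNA, and 220 and 211 under Tfe3/Tfeb siRNA. Of these Vwf (von Willebrand factor) differed by 1.45 and 0.15 with iron and by 0.45 and -0.84 with siRNA, the 1.45 becoming 0.94 with normexp and quantile normalization and the 0.15 becoming -0.33 averaged over its probes. Pecam1, an endothelial adhesion molecule, differed by 0.11 and -0.25 with iron and by -0.036 and -0.40 with siRNA. The fibroblast list had 1 of 9, Col1a2, at -0.51 and -0.58 with iron and -0.42 and -0.49 with siRNA, with sums from 108 to 201. The epithelial list had 2 of 8, with sums from 108 to 155. Its Cldn4 differed by -0.33 and 0.25 with iron and by -0.30 and 0.28 with siRNA, and its Krt14 by -0.27 and -0.39 with iron and by -0.16 and -0.29 with siRNA. At signals as low as those of Col1a2, Cldn4 and Krt14 the spot SD of a difference is 0.26 to 0.32. The Cldn4 and Krt14 values lie within it or little beyond it.

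Among the 12 macrophage markers Aif1 was furthest with iron in siGFP cells (-1.01, with -0.46 in siTfe3/Tfeb cells, and short of 2-fold with normexp under either scaling), and the list's medians were 0.027 and 0.033 with iron. With siRNA 1 of 12 lay above 0 without iron and 3 of 12 with iron, against 46.5% and 47.2% of all genes, and the medians were -0.26 and -0.13, the latter -0.0081 on median-centred arrays. Mertk (-1.06 under iron, with the exceptions given above) was the 1 macrophage marker past 2-fold lower with siRNA. The part of any of these in the differences of the lipid genes was not tested.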

How the data were processed

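Gene expression was measured on 4 1-colour Agilent arrays, 1 for each group of siRNA and iron. The deposited scanner files hold processed intensity per spot, with background already subtracted and no scaling between arrays, per the file headers; the software was Agilent Feature Extraction 12.0.3.1, per the submitters' processing notes. In the series matrix that the authors deposited, values are log2; array-to-array differences in it followed those of the scanner files with slope 1.0 (Pearson r 1.0), and each probe has been centred on its median of the 4 arrays. Its column medians were -0.0042, 0.022, -0.087 and 0.0013, and direction, scale and centring are settled by this comparison. All arrays share 1 slide and 1 scan run. No spot was saturated.

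From the 59305 non-control spots, outlier spots were left out (3 of 56605 probes lost), the 75th percentile of each array was subtracted from the log2 processed signal, repeated spots were averaged and each gene was represented by its brightest probe. Probes were named through a RefSeq table (GRCm38.p6): 33764 by accession, 9866 by symbol and 310 by synonym, with 12662 unnamed. A gene enters a comparison where its probe was flagged well above background on both arrays. The differences and 2-fold calls were tested on simulated levels with the same spread for dim and bright genes. Scaling, the background filter and the choice of probe were not part of that test. Normexp correction (offset 50) used limma 3.58.1 in R 4.3.3. Groups of 1 array allow no test, and the number of arrays limits the precision.

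The 10 genes and all lists were chosen with earlier results of these data known. Named from each list were genes past 2-fold in either iron comparison and the one furthest from 0 with iron in siGFP cells, with the 3 genes most like each member past 2-fold and Tfe3, Tfeb and Mitf. Outside this rule, Cd5l, Mertk, Acsbg1, Lpin1 and Gpam were named for siRNA differences after their values were seen. Markers of other cell types were named wherever they were measured on every array. Alternatives were quantile normalization, median centring, normexp with either scaling, the series matrix values, the mean over probes, no background filter and a 1.5-fold threshold.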

Additional observations from a re-analysis of the deposited data

Results flagged for a closer look

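Pparg differed with iron in opposite directions in the siRNA settings, -0.21 in siGFP and 0.24 in siTfe3/Tfeb cells, so the responses differed by 0.45 on the log2 scale. The spot SD of that difference is 0.37, and with 1 array per group the difference was not tested.

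Lpl differed with siRNA in opposite directions, -0.50 without iron and 0.047 with iron, a difference of 0.55 with a spot SD of 0.090. This too was not tested, and the value with iron lies within its own spot SD. Between the Lpl probes the same difference ran from 0.11 to 0.73, so its size depends on the probe.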

How the results depend on the processing

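No paired analysis was possible because each group holds 1 array, and for the same reason no replicate could be left out. Over the 7 alternatives other than the 1.5-fold threshold, 255 of 315 log2 differences moved by less than their spot SD. The remaining 60 moved by more, and 15 changed sign, none of them past 2-fold. Of the 255, 45 come from leaving out the background filter, which keeps each value as it was and so could not move any. With iron in siGFP cells the 2 genes past 2-fold higher became 1 (Fabp4) with normexp and the 75th percentile and 5 at a 1.5-fold threshold (with Lpl, Fabp5 and Plin2). Quantile normalization added Fabp5 (3 genes), and normexp with quantile normalization lost Cd36 and gained Fabp5. With iron in siTfe3/Tfeb cells the 2 became 4 with median centring (with Msr1 and Fabp5), 1 (Fabp4) with the mean over probes and 6 at 1.5-fold, and the series matrix values added Fabp5. With siRNA without iron the 2 genes lower became 1 (Cd36) with normexp under either scaling and 4 at 1.5-fold (with Msr1 and Pparg). Without the background filter Olr1, not well above background, was added with iron in siGFP cells and with siRNA under iron (3 genes each). For the difference of iron responses, 0 lower became 1 without the background filter (Olr1, not well above background on any array). Fabp4 with iron ranged from 2.37 to 2.66 in siGFP cells and from 2.18 to 2.90 in siTfe3/Tfeb cells, and Cd36 with siRNA from -2.03 to -1.05 without iron and from -2.52 to -1.72 with iron. Median centring moved the median of all genes with iron in siTfe3/Tfeb cells from -0.0065 to 0.096, with siRNA under iron from -0.019 to 0.10, and for the difference of responses to 0.12.

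Counts over all genes were smaller with normexp and the 75th percentile: 120 higher and 18 lower with iron in siGFP cells (200 and 38 otherwise), 143 and 17 in siTfe3/Tfeb cells (228 and 64), 78 and 149 with siRNA without iron (199 and 263), 43 and 94 with iron (120 and 189), and 11 and 9 for the difference of responses (39 and 48). Normexp with quantile normalization gave 120 and 19, 142 and 19, 82 and 137, 48 and 86, and 10 and 11 in the same order. Without the background filter they were 900 and 674, 581 and 1284, 927 and 1061, 453 and 1546, and 818 and 1704. The mean over probes gave 65 and 115 for the difference of responses. At 1.5-fold the counts were 600 and 265, 647 and 476, 894 and 1085, 559 and 791, and 366 and 344. The cause of these shifts was not tested. Signal over background limits the dim probes of Cd36, Pparg and Marco and the second Fabp4 probe, and spot SDs below the brightest level rest on 10 to 40 sets of repeated spots each, against 1090 for the brightest.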
